A study of Mus musculus with 163 samples.

Results

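The 10 Polycomb group genes Cbx2, Cbx7, Cbx8, Ezh1, Ezh2, Eed, Suz12, Ring1, Rnf2 and Pcgf6 were followed through single mouse oocytes, 71 growing and 92 fully grown. Each was found in the deposited read-count table by its Entrez gene identifier, and together they are 10 of its 21950 genes. The members are listed by name.

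Each library holds the messenger RNA of 1 oocyte, copied by the Smart-seq2 method, and the oocytes were either growing (GRO) or fully grown (FGO). GROs came from 3 sources: 24 were isolated directly from mice (in vivo GROs), 24 were derived from E12.5 embryonic gonad (gonad GROs) and 23 were derived from BVSC-iPSC (iPSC GROs). FGOs came from 4 sources: 20 in vivo FGOs, 24 gonad FGOs, 24 iPSC FGOs and 24 FGOs grown from follicles of ovaries taken 6 days after birth (6 dpp FGOs). BVSC-iPSC is 1 female line of induced pluripotent stem cells, made from tail tip fibroblasts of an adult mouse and carrying the reporters Blimp1-Venus and Stella-ECFP. Its cells were first turned into primordial germ cell-like cells, a step named IVP, and were then combined with gonadal somatic cells of outbred Swiss Webster embryos in a reconstituted ovary, a step named IVD. The gonad oocytes skipped IVP, because all cells of a dissociated gonad, its own germ cells included, were put together again, so they shared IVD but not IVP with the iPSC oocytes. Follicles of all 3 cultured sources were then grown in vitro (IVG), which was the only culture step of the 6 dpp FGOs. The labels name no engineered deletion in any group. The strain and age of the mice that gave the in vivo oocytes, and the strain behind the 6 dpp follicles, are not given for these libraries in the sources used here. The strain of the iPSC line is not given in the sources used here either. No strain is stated separately for the gonads behind the gonad oocytes. So genetic background cannot be told apart from IVP, IVD or IVG, and germ cells of the host gonads may remain in an iPSC-derived reconstituted ovary. The study describes the cultured GROs as larger than the in vivo GROs.

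Polycomb proteins keep genes silent by marking histones. Polycomb repressive complex 2 (PRC2) puts methyl groups on lysine 27 of histone H3, and Polycomb repressive complex 1 (PRC1) puts ubiquitin on histone H2A and compacts chromatin. In canonical PRC1 a CBX protein reads the mark left by PRC2, while variant PRC1 complexes lack a CBX protein and are brought to DNA by other factors. Both complexes act in growing oocytes, and marks they leave on maternal chromatin can be passed to the embryo.

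Levels are reads of a gene per 1000000 reads assigned to genes (CPM), which are shares of a library and say nothing of the amount of RNA in an oocyte. A group's pooled level is the reads of a gene summed over its oocytes, divided by their summed total, and the lowest, median and highest oocyte give the spread. The labels name no animal or culture behind an oocyte, so each group was counted as 1 sample and no test was made between groups. Groups were compared by the log2 ratio of pooled CPM after adding 0.5 CPM, and a gene was called where the ratio reached 2-fold. Plain folds were taken without the added 0.5 CPM, and their 95% intervals, like those of levels, cover counting error only. Libraries held 2.17 to 13.69 M reads (M, 1000000 reads) with a median of 6.93 M, so 3 reads over a whole group, the limit that a count of 0 allows, correspond to 0.0181 to 0.0207 CPM.

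The libraries had the RNA of oocytes. The 12 oocyte markers were all present in each group, with a summed pooled level of 59479 to 67977 CPM in GROs and 26283 to 46066 CPM in FGOs. Of 12 granulosa cell markers 10 were in the table and summed to 50.03 to 54.4 CPM in the GRO groups and 89.1 to 198 CPM in the FGO groups, with the highest single value, 1627 CPM, in 6 dpp FGO 12, which also had 189 CPM over 8 theca and stroma markers. Both lists thus move with stage, and their part in the growth comparisons was not tested. Blood markers summed to at most 0.0897 CPM. A first principal component of 14218 genes other than the members held 36.3% of the variance and placed all 71 GROs below 0 and 88 of the 92 FGOs above 0. The 4 exceptions were in vivo FGOs (numbers 5, 7, 19 and 22), and the study had left these, with in vivo FGO 16, out of its own fits for their size. Where leaving out these 5, with every other oocyte kept, ended or added a call of a member or moved its value by over 1.5 times, the value with the 15 others is also given. That setting was chosen after seeing the data.

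All 10 members were detected, but on very different scales. Levels between genes were compared per kilobase of exon (RPKM). Of the PRC2 genes, Ezh2 had 85.5 to 129 RPKM over the 7 groups, Eed 52.8 to 98.9 RPKM, Suz12 10.4 to 25.6 RPKM and Ezh1 8.55 to 14.6 RPKM. The summed reads of the 10 genes were 0.146% to 0.177% of a group's reads. Cbx8 and Ring1 had the widest range between groups, 9.59-fold and 20.1-fold from the lowest to the highest pooled CPM, or 13.4-fold and 39.7-fold with the 15 in vivo FGOs. Rnf2 had the narrowest range, 1.27-fold. When the 7 groups were put in order of the pooled level of a member, the oocytes of the 6 pairs of neighbouring groups overlapped for each of the 10 members. Neighbours in such an order are the groups most alike, so this overlap says little of groups farther apart. Of all 21 pairs of groups, 6 did not overlap for Cbx8, 4 for Suz12, 3 for Ring1 and 2 for Eed. The share of all genes is given below for some of these pairs only.

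**Figure D1:**
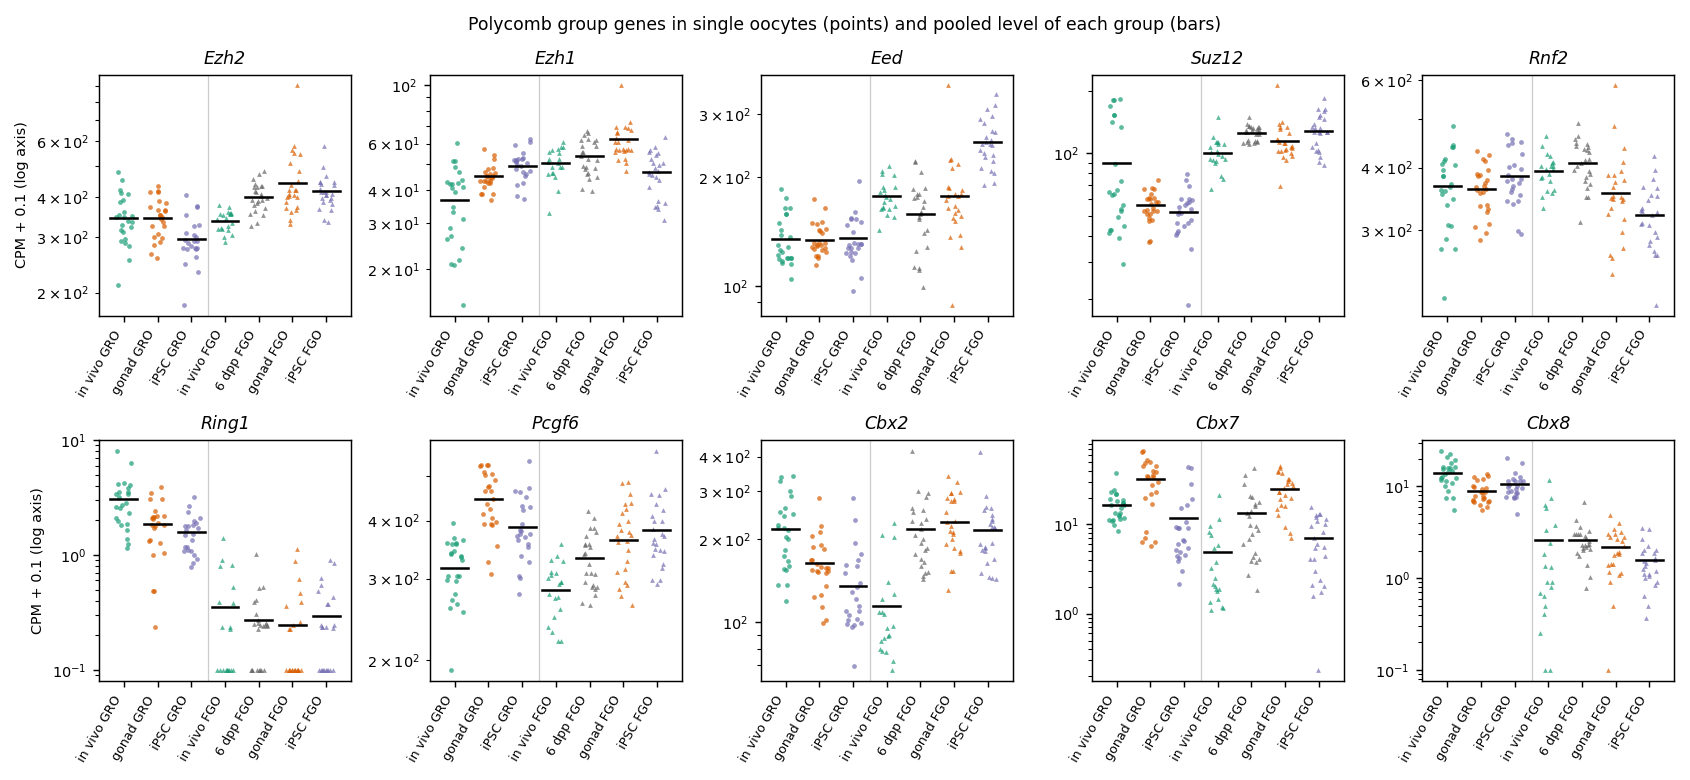
Level of each of the 10 members in each oocyte, as CPM + 0.1 on a log axis, with 1 panel per gene and 1 column per group; points are oocytes and black bars are pooled levels. Cbx8 and Ring1 sit lower in all 4 FGO groups than in the GRO groups, Suz12 sits higher in the cultured FGOs than in the cultured GROs, and Cbx7 is widely scattered within groups.

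The members lie on 7 chromosomes in the RefSeq annotation of GRCm38.p6 (the files use GRCm38), with Cbx2, Cbx8, Ezh1 and Suz12 all on chromosome 11. Cbx2 (chr11:119023019-119031275, plus strand) and Cbx8 (chr11:119036303-119040913, minus strand) lie 5027 bases apart. Suz12 is at chr11:79993106-80034123 (plus), Ezh1 at chr11:101191115-101226463 (minus), Ezh2 at chr6:47530274-47595270 (minus), Eed at chr7:89954654-89980976 (minus), Ring1 at chr17:34020792-34024680 (minus), Rnf2 at chr1:151469398-151500991 (minus), Pcgf6 at chr19:47033617-47050939 (minus) and Cbx7 at chr15:79915804-79971143 (minus). Values are reads in exons, untranslated parts included. In the GENCODE annotation of that build, exons of Cbx7 overlap Apobec3 on the other strand, which had 0.197 to 0.438 CPM, and whether reads were counted by strand is not stated. Exons of Eed, Ezh2, Suz12 and Rnf2 also meet those of another annotated gene, E230029C05Rik (at most 0.0251 CPM), Gm26625, Gm26563 and Trmt1l, of which the last 3 were not analysed here.

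The 250 bases before the start of Cbx8, Ring1 and Suz12, the 3 members that were called in both cultured growth comparisons, are shown here from RefSeq (GRCm38.p6), written 5′ to 3′ on the strand of the gene. They lie at chr11:119040914-119041163 (Cbx8, minus), chr17:34024681-34024930 (Ring1, minus) and chr11:79992856-79993105 (Suz12, plus). Both strands were searched for CACGTG, the E-box of the MYC and MAX family, and for TTCCCGC, a form of the E2F motif. No match of one overlapped a match of the other, and matches are in capitals.
Cbx8: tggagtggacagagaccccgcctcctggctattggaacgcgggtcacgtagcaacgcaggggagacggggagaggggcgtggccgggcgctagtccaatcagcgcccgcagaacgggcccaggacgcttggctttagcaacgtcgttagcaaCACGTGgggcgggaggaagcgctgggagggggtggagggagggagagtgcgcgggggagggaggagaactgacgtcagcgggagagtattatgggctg
Ring1: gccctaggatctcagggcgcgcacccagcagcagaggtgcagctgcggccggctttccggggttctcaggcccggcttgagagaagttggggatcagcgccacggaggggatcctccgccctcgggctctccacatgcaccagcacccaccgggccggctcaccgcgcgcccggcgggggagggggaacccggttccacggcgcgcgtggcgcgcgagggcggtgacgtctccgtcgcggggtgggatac
Suz12: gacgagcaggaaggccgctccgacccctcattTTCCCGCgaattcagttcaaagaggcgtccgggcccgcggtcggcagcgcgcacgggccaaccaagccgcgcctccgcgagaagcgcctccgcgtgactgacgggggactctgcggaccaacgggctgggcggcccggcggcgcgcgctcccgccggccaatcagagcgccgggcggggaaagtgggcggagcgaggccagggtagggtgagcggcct
The Cbx8 stretch held 1 E-box 98 bases before the start, and the Suz12 stretch held 1 E2F-type match 218 bases before the start. Among 27025 promoters of that length, 6.05% held CACGTG and 3.84% held TTCCCGC. The Ring1 stretch held neither. All 3 were rich in CpG, with 22 sites in Cbx8, 30 in Ring1 and 37 in Suz12, against a median of 6 over all promoters. The members called in no comparison were above that median too, with 23 in Ezh2, 20 in Rnf2, 14 in Ezh1 and Pcgf6 and 12 in Eed. These matches are a description of letters and no evidence of binding.

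PRC2 has EZH2 or EZH1 as the methyltransferase, EED as the subunit that reads the mark and SUZ12 as the scaffold. Suz12 was the only PRC2 member that reached 2-fold in any comparison. In oocytes the pooled level of Suz12 was 56.0 CPM in gonad GROs (37.5, 55.6 and 74.2 in the lowest, median and highest oocyte) and 114 CPM in gonad FGOs (69.5, 110 and 211). In iPSC GROs it was 52.4 CPM (18.7, 51.8 and 79.5) and in iPSC FGOs 128 CPM (87.6, 126 and 184). So 23 of 24 gonad FGOs were above every gonad GRO, and all 24 iPSC FGOs were above all 23 iPSC GROs. The log2 ratio was 1.02 (a plain fold of 2.03) for gonad-derived oocytes and 1.28 (a plain fold of 2.45) for iPSC-derived oocytes. Of all genes tested, 5.82% were at least 2-fold higher in gonad FGOs and 6.69% in iPSC FGOs, and 2.39% had all iPSC FGOs above all iPSC GROs. The gonad ratio was under 2-fold by medians (0.97) and without gonad FGO 19 (0.96), gonad GRO 6 (0.99) or gonad GRO 7 (0.997).

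In growth in vivo Suz12 was not called. In vivo GROs had 89.8 CPM but spread from 29.4 to 182, with a median of 64.2. A gap of 1.51-fold lay between 16 oocytes at 29.4 to 88.6 CPM and 8 oocytes at 133 to 182 CPM. In vivo FGOs had 100.4 CPM (67.3, 100.0 and 150), inside the range of the GROs, with a log2 ratio of 0.16. The ratio of medians was 0.63, and whether growth of Suz12 differed between sources was not tested. Among the GROs, Suz12 had log2 ratios of -0.68 for gonad against in vivo and -0.77 for iPSC against in vivo, and both were closer to 0 by medians (-0.21 and -0.31). In the 6 dpp FGOs Suz12 had its narrowest spread, 126 CPM with all oocytes between 111 and 150.

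Ezh2, the main methyltransferase, stayed within a range of 1.51-fold. Its lowest pooled level was 294 CPM in iPSC GROs and its highest 443 CPM in gonad FGOs, where gonad FGO 19 alone reached 900 CPM and the median was 415. Ezh1, a related enzyme with weaker activity, ran from 36.5 CPM in in vivo GROs to 62.3 CPM in gonad FGOs. Ezh1 made up 7.90% to 11.9% of the summed RPKM of both enzymes. Neither gene reached 2-fold in any of the 11 comparisons.

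Eed was level among the GROs and highest in iPSC FGOs. It had 135, 134 and 135 CPM in the in vivo, gonad and iPSC GROs, and 177, 158, 178 and 251 CPM in the in vivo, 6 dpp, gonad and iPSC FGOs. The iPSC FGOs ranged from 191 to 341 CPM, so all 24 were above all 24 in vivo GROs (104 to 185) and all 24 gonad GROs (114 to 175), while 22 of them were above every iPSC GRO. Of all genes tested, 4.46% had all iPSC FGOs above all in vivo GROs and 2.26% had them above all gonad GROs. The log2 ratio of growth was 0.89 in iPSC-derived oocytes (1.85-fold), under 2-fold, beside 0.39 in vivo and 0.41 in gonad-derived oocytes. Between FGO sources, Eed had a log2 ratio of 0.50 for iPSC against gonad FGOs.

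The subunits of PRC2 thus had unequal ratios to each other across groups. In RPKM, Ezh2 was 5.56, 8.95 and 8.19 times Suz12 in the in vivo, gonad and iPSC GROs. In the in vivo, 6 dpp, gonad and iPSC FGOs it was 4.89, 4.65, 5.68 and 4.74 times Suz12. The highest ratios were those of the 2 cultured GRO groups. The in vivo GRO ratio rests in part on the 8 oocytes with 133 to 182 CPM of Suz12. They put its pooled level at 89.8 CPM beside a median of 64.2 CPM, while Ezh2 had 343 and 341 CPM.

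The ubiquitin ligase of PRC1 is RNF2 (also RING1B) or its paralog RING1 (RING1A). Rnf2 carried nearly all of the family's RNA, 98.8% to 99.9% of the summed RPKM. Its pooled level was 367, 362 and 384 CPM in the in vivo, gonad and iPSC GROs, and 393, 409, 356 and 321 CPM in the in vivo, 6 dpp, gonad and iPSC FGOs. No log2 ratio of Rnf2 was further from 0 than -0.29 (iPSC against in vivo FGOs).

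Ring1 was low in GROs and near the limit of detection in FGOs. In vivo GROs had 2.97 CPM from 480 reads (1.05, 2.67 and 7.98 in the lowest, median and highest oocyte), gonad GROs 1.78 CPM (0.138, 1.78 and 3.85) and iPSC GROs 1.49 CPM (0.687, 1.41 and 3.12). Each of the 71 GROs had at least 1 read. In vivo FGOs had 0.255 CPM from 37 reads, 6 dpp FGOs 0.169 CPM from 27 reads, gonad FGOs 0.148 CPM from 24 reads and iPSC FGOs 0.193 CPM from 32 reads. Ring1 had 0 reads in 10, 8, 14 and 10 of these FGOs, and its highest single FGO value was 1.32 CPM. All in vivo GROs were above all 6 dpp FGOs, all gonad FGOs and all iPSC FGOs, as were 5.14%, 4.94% and 7.64% of the genes tested in each pair.

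As a plain fold, Ring1 was 11.6 times lower in FGOs than in GROs in vivo (95% counting interval 8.31 to 16.7), 12.0 times in gonad-derived oocytes (7.91 to 19.1) and 7.74 times in iPSC-derived oocytes (5.34 to 11.6). With 0.5 CPM added the log2 ratios were -2.20, -1.81 and -1.52, which understates the change of so low a gene. Ring1 passed the filter on low values (above 1 CPM in at least 3 oocytes of the compared groups) in 6 of 11 comparisons, those that include GROs, and passed the 3 growth comparisons only through the GROs. The other 9 members passed it in all 11. Without the 5 oocytes the in vivo FGOs had 0.0748 CPM of Ring1 from 8 reads, and the fold in vivo was 39.7 (20.0 to 92.4). Of those 5 oocytes, 4 had more Ring1 than each of the 15 others. The intervals cover counting error only, so they cannot show whether growth differed between sources, which was not tested.

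PCGF6 defines a variant PRC1 that is known for silencing germline genes in other cells. Pcgf6 had 316, 445 and 387 CPM in the in vivo, gonad and iPSC GROs, and 283, 332, 364 and 381 CPM in the in vivo, 6 dpp, gonad and iPSC FGOs. At each stage the in vivo group was the lowest, with log2 ratios of 0.49 (gonad against in vivo GROs) and 0.36 and 0.43 (gonad and iPSC against in vivo FGOs), all under 2-fold and with overlapping oocytes. Among the 6 PCGF genes, Pcgf6 was the second most abundant in each group, with 23.8% to 34.99% of their summed RPKM, after Pcgf1 with 53.0% to 61.7%. This order depends on exon length, since by summed CPM Pcgf6 was above Pcgf1 in 6 of the 7 groups, all but in vivo FGOs. BMI1 and PCGF2 are the PCGF proteins of canonical PRC1, and Bmi1 had 6.69% to 12.6% of the summed RPKM and Pcgf2 at most 0.0321%.

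The CBX genes code for the readers of canonical PRC1. Cbx2 was the most abundant one, Cbx8 was lower in FGOs of all sources, and Cbx7 differed between sources at both stages.

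Cbx8 had 14.0 CPM in in vivo GROs (5.49, 13.9 and 24.4 in the lowest, median and highest oocyte), 8.79 CPM in gonad GROs (5.47, 8.26 and 13.73) and 10.5 CPM in iPSC GROs (4.86, 9.65 and 20.2). In FGOs it had 2.50 CPM in vivo (0, 1.02 and 11.6), 2.48 CPM from 6 dpp follicles (0.671, 2.23 and 6.66), 2.09 CPM from gonads (0, 1.82 and 4.81) and 1.46 CPM from iPSC (0.271, 1.31 and 3.44). The 24 gonad FGOs were all below the 24 gonad GROs, and the 24 iPSC FGOs all below the 23 iPSC GROs. Among all genes tested, 2.62% were non-overlapping and lower in gonad FGOs and 5.62% in iPSC FGOs. In vivo, 16 of 20 FGOs were below every GRO, and the other 4 were numbers 5, 7, 19 and 22, which stood apart on the stage component.

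As a plain fold, Cbx8 was 5.61 times lower in FGOs than in GROs in vivo (5.02 to 6.29), 4.20 times in gonad-derived oocytes (3.72 to 4.74) and 7.20 times in iPSC-derived oocytes (6.29 to 8.27). The log2 ratios were -2.28, -1.84 and -2.49. Without the 5 in vivo FGOs the level in vivo was 1.05 CPM the log2 ratio -3.23 and the plain fold 13.4 (11.1 to 16.3). Between FGO sources no log2 ratio of Cbx8 reached 2-fold, and the sign against in vivo FGOs depended on those 5 oocytes, with log2 ratios of -0.01, -0.21 and -0.61 for 6 dpp, gonad and iPSC FGOs with them and 0.95, 0.75 and 0.34 without them. The added 0.5 CPM holds these down at levels so low, and as plain folds over the 15 in vivo FGOs they were 2.37 (1.92 to 2.96), 2.00 (1.61 to 2.50) and 1.397 (1.11 to 1.76).

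Cbx7 varied widely within and between groups. In GROs its pooled level was 16.3 CPM in vivo (8.24, 15.8 and 37.2 in the lowest, median and highest oocyte), 32.2 CPM from gonads (5.70, 34.1 and 66.7) and 11.6 CPM from iPSC (2.06, 6.63 and 44.2). In FGOs it was 4.82 CPM in vivo (0.991, 2.25 and 21.1), 13.2 CPM from 6 dpp follicles (1.75, 9.67 and 42.8), 24.65 CPM from gonads (6.90, 24.2 and 44.9) and 6.93 CPM from iPSC (0.135, 5.70 and 15.5). The gonad group was the highest at each stage, but oocytes of all groups overlapped. Of the gonad GROs, 19 had 16.7 to 66.7 CPM and the other 5 had 5.70 to 8.03 CPM. The 5 in vivo FGOs left out by the study had 5.37 to 21.1 CPM of Cbx7, and the pooled level of the 15 others was 2.68 CPM.

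The largest plain fold of Cbx7 was 5.12 (4.72 to 5.55), for gonad over in vivo FGOs, where 15 of 24 gonad FGOs were above every in vivo FGO. Over the 15 other in vivo FGOs it was 9.19 (8.15 to 10.4), and 22 of 24 gonad FGOs were above all of these. Gonad FGOs also had 3.56 times the level of iPSC FGOs (3.33 to 3.80), and 19 of them were above every iPSC FGO. The 6 dpp FGOs had 2.74 times the in vivo level (2.51 to 2.99), or 4.92 times that of the 15 (4.35 to 5.58). In GROs, gonad oocytes had 2.78 times the iPSC level (2.63 to 2.93) and 1.97 times the in vivo level, just under 2-fold. The log2 ratio of growth was -1.66 in vivo, a plain fold of 3.39 (3.12 to 3.69), beside -0.38 for gonad-derived and -0.70 for iPSC-derived oocytes. With the 15 in vivo FGOs it was -2.40, a plain fold of 6.08 (5.38 to 6.90), and all 15 were below every in vivo GRO. These comparisons share libraries, and their differences were not tested.

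Cbx2 was lower in FGOs than in GROs in vivo and higher in FGOs in culture, by less than 2-fold in each case with all oocytes pooled. Its level was 218 CPM in in vivo GROs (119, 218 and 339 in the lowest, median and highest oocyte) and 115 CPM in in vivo FGOs (67.2, 96.3 and 229), so 14 of 20 FGOs were below every GRO. From gonads it was 164 CPM in GROs (99.5, 157 and 283) and 231 CPM in FGOs (131, 228 and 341). From iPSC it was 136 CPM in GROs (69.3, 122 and 282) and 216 CPM in FGOs (143, 207 and 414), and 6 dpp FGOs had 218 CPM (144, 205 and 420). The log2 ratios of growth were -0.93 in vivo, 0.50 from gonads and 0.67 from iPSC, all under 2-fold.

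At the FGO stage the in vivo oocytes had the lowest Cbx2 of the 4 sources. The log2 ratio was 0.92 for 6 dpp FGOs, 1.01 for gonad FGOs and 0.91 for iPSC FGOs, each over the same 20 in vivo FGOs. The 5 in vivo FGOs left out by the study had 127 to 229 CPM of Cbx2, all above the other 15 at 67.2 to 122 CPM. With those 15 the log2 ratios were 1.25, 1.34 and 1.24, and growth in vivo was -1.25. In the GROs the order was reversed, with log2 ratios of -0.41 for gonad and -0.68 for iPSC against in vivo.

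**Figure D2:**
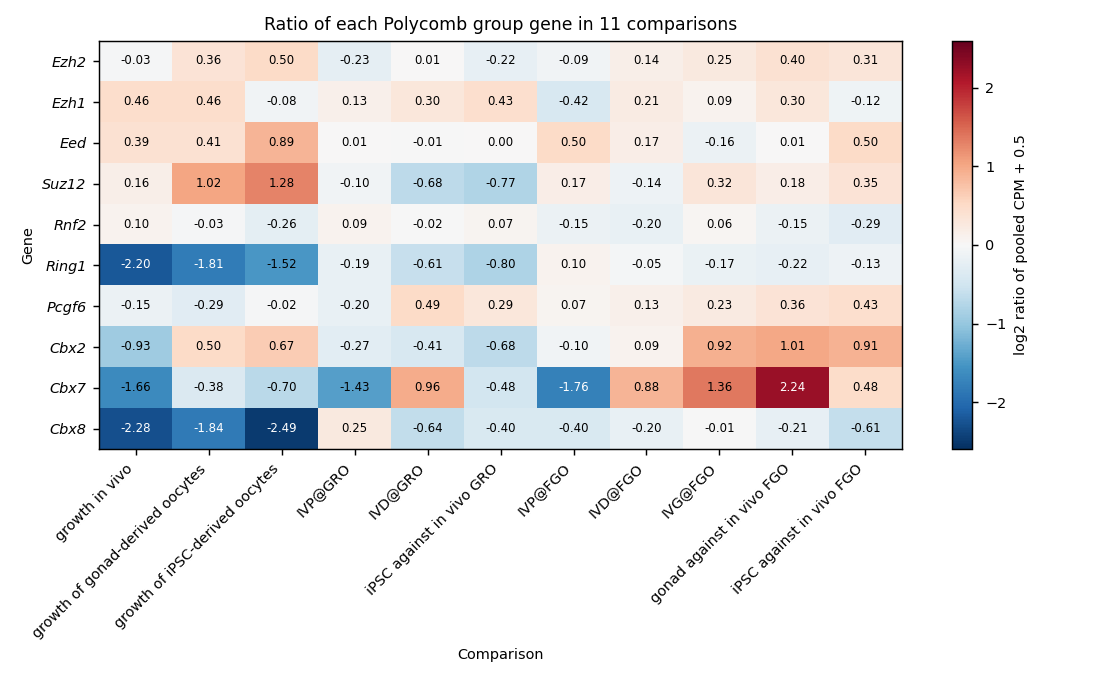
Log2 ratio of pooled CPM + 0.5 for each member (rows) in each of the 11 comparisons (columns), printed in each cell, with red for higher and blue for lower; IVP@, IVD@ and IVG@ mark the comparison across that step at the named stage. Ratios of 1 or more in size sit in the rows of Cbx2, Cbx7, Cbx8, Ring1 and Suz12, and the rows of Ezh1, Ezh2, Eed, Rnf2 and Pcgf6 hold none; Ring1 did not pass the filter on low values in the FGO comparisons.

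By comparison, the members' calls ran as follows beside those of all genes. During growth in vivo 3 members were at least 2-fold lower in FGOs (Cbx7, Cbx8 and Ring1) and none higher, with 13.2% of 13148 genes lower and 10.4% higher. Cbx8 and Ring1 were also at least 4-fold lower, as were 1.95% of genes. With the 15 in vivo FGOs Cbx2 was also called, with 18.2% of 12995 genes lower, and Cbx7 also passed 4-fold, as did 4.46% of genes. During growth of gonad-derived oocytes 2 were lower (Cbx8 and Ring1) and 1 higher (Suz12), with 9.98% of 13068 genes lower and 5.82% higher. During growth of iPSC-derived oocytes the same 3 genes were called in the same directions, with 15.3% of 13115 genes lower and 6.69% higher, and Cbx8 was 4-fold lower, as were 3.61% of genes. A count of 2 or 3 among 10 members is read against these shares, and it is not shown to stand above them. Ring1 is in each of these counts, but it passed the filter on low values only through the GROs. It could thus be called lower in FGOs but hardly higher. The median log2 ratio of the members was -0.09, 0.17 and -0.05 in the 3 growth comparisons, and that of all genes -0.11, -0.05 and -0.11.

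The IVP comparisons set iPSC against gonad oocytes. In GROs only Cbx7 was called (lower in iPSC, log2 ratio -1.43), with 1.8% of 13029 genes lower and 2.03% higher. By medians over oocytes its log2 ratio there was -2.28, past 4-fold. In FGOs only Cbx7 was called again (-1.76), with 3.9% of 12889 genes lower and 2.3% higher. The next largest values in FGOs were 0.50 for Eed and -0.42 for Ezh1.

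For IVD, gonad against in vivo GROs gave 0 members past 2-fold, with 4.3% of 13059 genes higher and 2.75% lower. The largest values were 0.96 for Cbx7 and -0.68 for Suz12. Gonad against 6 dpp FGOs also gave 0, with 1.64% of 12977 genes higher and 0.948% lower, and the largest value was 0.88 for Cbx7. In both, Cbx7 passed 2-fold by the ratio of medians (1.09 and 1.28).

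For IVG, the 6 dpp against in vivo FGOs had Cbx7 called (1.36), with 1.25% of 12932 genes higher and 3.12% lower. With the 15 in vivo FGOs it was 2.11, past 4-fold like 0.206% of genes, and Cbx2 was also called (1.25), with 2.08% of 12635 genes higher. The larger contrast of gonad with in vivo FGOs had 2 of 9 tested members called, Cbx7 (2.24) and Cbx2 (1.01), with 2.14% of 12984 genes higher and 3.43% lower. Cbx7 was the only one at 4-fold, as were 0.323% of genes. With the 15 in vivo FGOs the same members were called, at 2.98 and 1.34, with 3.55% of 12701 genes at least 2-fold and 0.386% at least 4-fold higher. With all 20 Cbx2 was at the limit, since leaving out any one of 18 of the 44 oocytes put it under 2-fold, with the lowest value, 0.98, without gonad FGO 18.

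The iPSC oocytes against the in vivo ones had 0 members called at either stage. In GROs the shares were 5.61% of 13136 genes higher and 4.38% lower, and in FGOs 4.21% of 12972 genes higher and 10.3% lower. In GROs the values ran from -0.80 (Ring1) to 0.43 (Ezh1), and by medians Cbx7 passed 2-fold (-1.19 in place of -0.48). In FGOs they ran from -0.61 (Cbx8) to 0.91 (Cbx2), and without the 5 in vivo FGOs Cbx2 (1.24) and Cbx7 (1.22) passed 2-fold, with 5.63% of 12714 genes higher.

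The make-up of these CBX genes differed between stages and sources. Cbx2 held 79.8%, 72.6% and 76.8% of the summed RPKM of Cbx2, Cbx6, Cbx7 and Cbx8 in the in vivo, gonad and iPSC GROs. In the in vivo, 6 dpp, gonad and iPSC FGOs it held 90.3%, 90.6%, 86.6% and 94.6%. The share of Cbx8 was 12.7%, 9.61% and 14.7% in the GROs and 4.86%, 2.55%, 1.94% and 1.58% in the FGOs. Cbx7 held most in the gonad groups, 17.7% in GROs and 11.4% in FGOs, and 4.71% in in vivo FGOs, 6.80% in 6 dpp FGOs and 3.77% in iPSC FGOs. With the 15 in vivo FGOs its share there was 3.42%, below that in iPSC FGOs, while Cbx2 held 93.9% and Cbx8 2.66%. Cbx6 held at most 0.339%. The summed level of these genes was 69.5, 57.4 and 44.9 RPKM in the GROs, and 32.2, 61.1, 67.9 and 58.0 RPKM in the FGOs in the same order, so it was lowest in in vivo FGOs (24.7 RPKM with the 15).

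**Figure D3:**
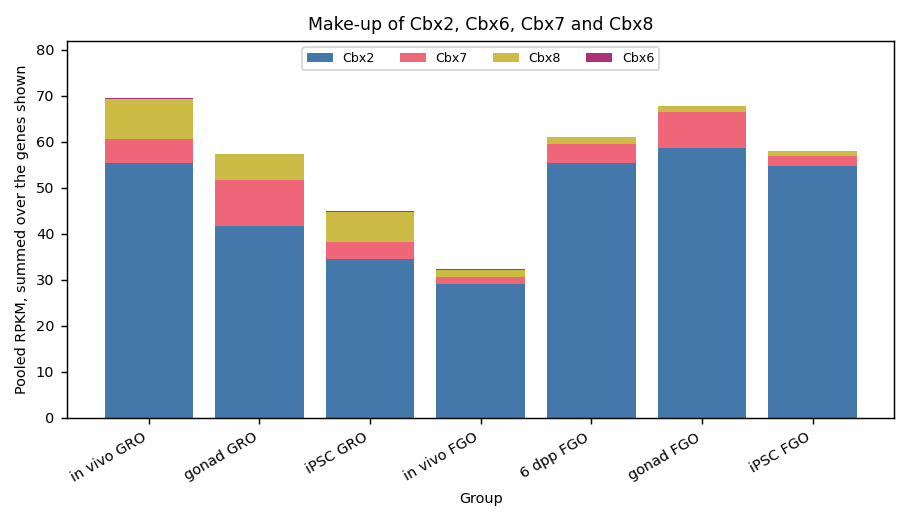
Make-up of CBX genes in each group: stacked bars show the summed RPKM of Cbx2, Cbx6, Cbx7 and Cbx8 from the pooled counts, on an axis from 0. Cbx2 is the largest segment in all 7 groups, and the in vivo FGO bar is the shortest at 32.2 RPKM.

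Members differed in how much they varied from oocyte to oocyte. The coefficient of variation of Cbx7 was 38.5%, 57.2% and 101% in the in vivo, gonad and iPSC GROs, and 107%, 81.9%, 44.2% and 66.3% in the in vivo, 6 dpp, gonad and iPSC FGOs. Counting error alone gives it 7.00% to 17.5%, most in in vivo FGOs. For genes at 10 to 1000 CPM the median was 17.5% to 23.4% in the groups, but Cbx7 is below that range in in vivo and iPSC FGOs. Suz12 had 59.8% in in vivo GROs, where counting error alone gives 4.05%, and 8.16% in 6 dpp FGOs. Gonad FGO 19 had the highest value of its group for 5 members: 99.5 CPM of Ezh1, 900 of Ezh2, 360 of Eed, 211 of Suz12 and 585 of Rnf2. It had 6.95 M reads and 0 reads of Cbx8 and Ring1.

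Correlations between members are given as descriptions, since oocytes of a group share their source and their preparation. They are Pearson's r of log2(CPM + 1). In the 24 in vivo GROs, where Suz12 was split, Suz12 followed Eed (r = 0.79) and Ezh2 (0.67) and ran against Ezh1 (-0.77). Ezh1 and Eed had r = -0.89. Leaving out the 2 oocytes farthest from the median gave 0.73, 0.64, -0.71 and -0.89. That leaves the split of Suz12 in place, and whether these values go beyond the split was not tested. The other GRO groups differed. In the gonad and iPSC GROs Suz12 had r = 0.42 and 0.55 with Eed, and -0.11 and 0.69 with Ezh2. With Ezh1 it had -0.33 and -0.05, and Ezh1 and Eed had -0.42 and -0.13. In the 20 in vivo FGOs Cbx8 followed Ring1 (0.90) and Cbx2 (0.81), and over the 15 oocytes kept by the study these were 0.58 and 0.30. Over the oocytes of all groups Cbx8 and Ring1 had r = 0.82, which became 0.30 once group means were subtracted. Eed and Suz12 had 0.65, and 0.49 within groups.

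**Figure D4:**
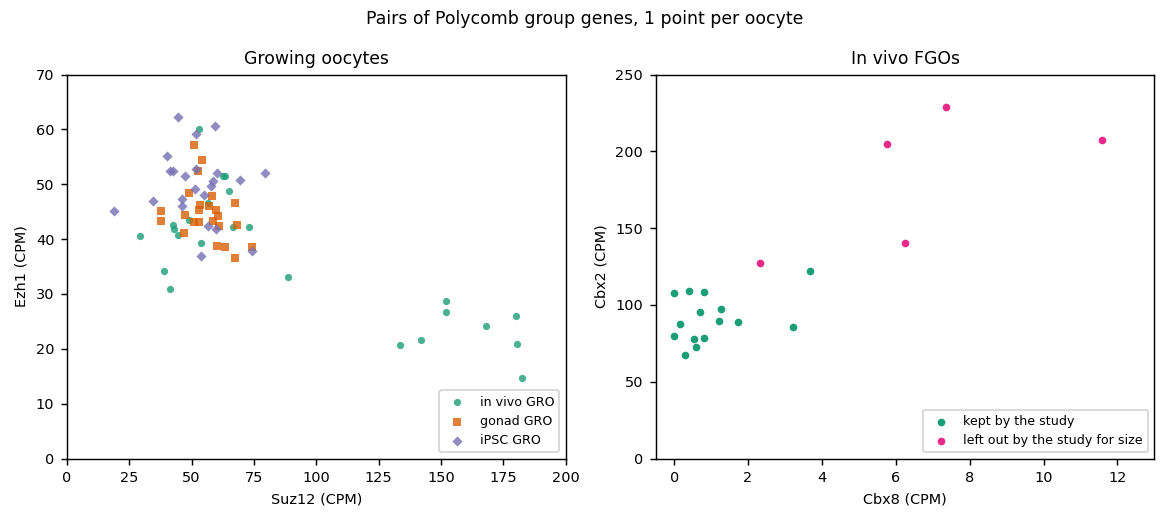
Pairs of members in single oocytes, in CPM. Left, Ezh1 against Suz12 in the 3 GRO groups, where 8 in vivo GROs with at least 133 CPM of Suz12 have low Ezh1; right, Cbx2 against Cbx8 in the 20 in vivo FGOs, where the 5 oocytes left out by the study have 127 to 229 CPM of Cbx2.

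The genes whose pattern over the oocytes of all groups was most like that of a member were found among 14228 genes by the same r. For Suz12 these were Atp13a3 (0.92) and Fmn2 (0.91), the latter a formin needed to position the oocyte spindle, and both stayed high within groups (0.82 and 0.80). For Cbx2 they were Zfp212 (0.87, and 0.86 within groups) and Wbp1l (0.84 and 0.74). For Cbx8 they were Zfp668 (0.92 and 0.64) and Zfp707 (0.92 and 0.67). For Ring1, Haghl (0.88) and Chmp6 (0.87) dropped to 0.42 and 0.36 within groups.

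The partners of the other members had a lower r over all oocytes. For Eed they were Cks1b (0.77), which codes for a binding partner of cyclin-dependent kinases, and Mphosph6 (0.74). For Ezh2 they were Ube2k (0.78) and Rbm27 (0.76). For Ezh1 they were Mcm10 (0.73), a DNA replication factor, and Ammecr1l (0.72). Within groups the values of these 6 were 0.49 to 0.65. For Rnf2 they were Prkci (0.69) and Rrm2b (0.62), at 0.61 and 0.62 within groups. For Pcgf6 they were Mms22l (0.69) and Pithd1 (0.65), at 0.76 and 0.57 within groups. For Cbx7 the best were Rapgef1 (0.55) and Gpx3 (0.54), at 0.17 and 0.39 within groups. Each r is the highest of many and is read as a ranking only.

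Of 48 further Polycomb genes on a list of subunits and opposing enzymes, 42 were in the table. In growth in vivo 40 were tested, 1 was at least 2-fold higher and 4 lower, beside 10.4% and 13.2% of all genes, with a median log2 ratio of -0.10 beside -0.11 for all genes. Yaf2, a partner of the RING1 proteins in variant PRC1, was higher (1.77), while Hdac1 (-1.72), a histone deacetylase, and Bend3 (-1.51), a DNA-binding protein, were lower. With the 15 in vivo FGOs 2 were higher and 6 lower of 40, beside 11.2% and 18.2% of all genes. In gonad-derived growth 0 were higher and 2 lower of 40, Hdac1 (-1.48) and Pcgf5 (-1.41), beside 5.82% and 9.98% of all genes. In iPSC-derived growth 2 were higher, Yaf2 (1.51) and Ezhip (1.05), and 1 of 40 was lower, Hdac1 (-2.12), beside 6.69% and 15.3% of all genes.

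Between sources, gonad against in vivo GROs had 1 of these genes higher of 41, Aebp2 (1.02), a PRC2 accessory subunit, and 2 lower, beside 4.3% and 2.75% of all genes. The iPSC against in vivo GROs had 1 higher of 42, Aebp2 (1.09), and 2 lower, among them Jarid2 (-1.16), another accessory subunit, beside 5.61% and 4.38% of all genes. The IVP comparisons had 0 of 42 called in GROs, beside 2.03% of all genes higher and 1.8% lower, and 0 of 38 in FGOs, beside 2.3% and 3.9%. In the other FGO comparisons 38 or 39 were tested in each and the only one called was Mga (-1.39), the DNA-binding partner of PCGF6, in iPSC against in vivo FGOs, where 10.3% of all genes were lower and 4.21% higher. In IVD, IVG and gonad against in vivo FGOs 1.64%, 1.25% and 2.14% of all genes were higher and 0.948%, 3.12% and 3.43% lower. None of these counts is shown to stand apart from the shares of all genes. Ezhip, an inhibitor of PRC2 that is abundant in oocytes, had 1760 to 3656 CPM over the groups, and Rbbp7, a histone-binding subunit, 1545 to 2739 CPM. In RPKM Ezhip was above Ezh2 in each group, at 785 to 1630.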

How the data were processed

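Single-oocyte libraries were prepared by the study with Smart-seq2 and sequenced as single-end reads. The authors aligned reads with STAR to GRCm38 with spike-in sequences and deposited, per the labels and methods, whole-number read counts per gene, summed over exons of a gene model from the UCSC mm10 annotation, and the exonic length. Multi-mapping reads were placed at random but only uniquely mapped reads were counted, so reads of near-identical copies are missing. Of 21950 genes, 21907 matched a symbol in the RefSeq table of GRCm38.p6, and 43 did not.

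From the counts, CPM and RPKM were computed with Python 3.11.15, pandas 2.3.3, numpy 2.4.6 and scipy 1.17.1. Counts were summed per group because the labels name no animal, embryo or culture, so a group is 1 sample and any spread between oocytes may be technical or biological. Intervals are exact Poisson intervals of summed counts, and for folds exact binomial intervals. Reads had no molecular identifiers, so intervals and floors cover counting error only. Genes above 1 CPM in at least 3 oocytes of the compared groups were tested, and 2-fold and 4-fold differences were called across all of them. Scaling by TMM (edgeR 4.0.16) and by DESeq2 1.42.0 size factors (R 4.3.3), other pseudocounts (0.1 and 2 CPM), medians over oocytes, no filter, each oocyte left out and only the 154 oocytes kept by the study were alternatives, and leaving out only the 5 in vivo FGOs that the study dropped was added later. The ratio step was tested on simulated counts of gonad GROs and FGOs, with independent oocytes and the same variation for every gene. That variation was below that of Cbx7, so the simulation checks the computing of ratios and not the spread of these oocytes.

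Members and lists were chosen with earlier results of these data known. Named were all members, of the further Polycomb genes the 3 with the largest ratio in a comparison that had at least 5 CPM in the higher group and also passed 2-fold by medians, the genes of the paralog families, and for each member the 2 genes with the highest correlation. Ezhip and Rbbp7 were also described after their values were seen. Among 48 listed Polycomb genes, 6 without a row in the table used were not analysed here. An item withheld from this work is not reported here.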

Additional observations from a re-analysis of the deposited data

How the results depend on the processing

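Over 14 ratios of members past 2-fold, 118 values under other settings kept their direction, and 9 of them were under 2-fold. No paired analysis was possible because oocyte numbers name libraries and no oocyte of one group belongs to one of another. The number of members past 2-fold in growth in vivo stayed at 3 under both other scalings, both pseudocounts and without the filter, and was 4 by medians with the oocytes kept by the study or without only the 5 in vivo FGOs (Cbx2, -1.25). In growth of gonad-derived oocytes it went from 3 to 2 by medians (Suz12, 0.97), to 1 with 2 CPM added and to 0 at 4-fold, and in growth of iPSC-derived oocytes from 3 to 2 with 2 CPM added (Ring1, -0.67) and to 1 at 4-fold. At 4-fold it was 0 for iPSC against gonad GROs, 0 for iPSC against gonad FGOs and 0 for 6 dpp against in vivo FGOs. By medians over oocytes it was 1 in place of 0 for gonad against in vivo GROs, for iPSC against in vivo GROs (Cbx7, -1.19) and for gonad against 6 dpp FGOs, 2 in place of 0 for iPSC against in vivo FGOs and 2 in place of 1 for 6 dpp against in vivo FGOs. With the oocytes kept by the study it was 2 for both of the last (Cbx2 at 1.26 and 1.23), and without only the 5 in vivo FGOs, a setting chosen after seeing the data, also 2 for both (1.24 and 1.25). For gonad against in vivo FGOs it went from 2 to 1 with TMM, DESeq2 size factors, 2 CPM added or the 4-fold limit, each time by the loss of Cbx2. Leaving out 1 oocyte gave 0 to 1 for gonad against in vivo GROs (Cbx7, 1.04 without in vivo GRO 21, and past 2-fold without gonad GRO 2, 3 or 17), 0 to 1 for gonad against 6 dpp FGOs (1.04 without 6 dpp FGO 20) and 1 to 2 for gonad against in vivo FGOs, where 18 of 44 oocytes each put Cbx2 under 2-fold and gonad FGO 19, a setting chosen after seeing the data, gave 1. Without that oocyte 2 members were past 2-fold in growth of gonad-derived oocytes, since Suz12 was at 0.96 (also under 2-fold without gonad GRO 6 or 7). Leaving out 6 dpp FGO 12, chosen likewise for its granulosa markers, changed no count. The cause of these shifts was not tested. The log2 ratio of Cbx8 over in vivo FGOs turned from -0.01, -0.21 and -0.61 for 6 dpp, gonad and iPSC FGOs to 0.94, 0.77 and 0.37 with the oocytes kept by the study, and to 0.95, 0.75 and 0.34 without only the 5 in vivo FGOs. No scaling moved the median of all genes by over 0.1. Counts are the limit for Ring1 in FGOs, where a group holds 24 to 37 reads.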

Other observations

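Genes that Polycomb proteins silence in many cells were looked at in the same oocytes. Of 39 Hox genes listed 32 were in the table, and their summed pooled level was 30.1, 51.1 and 79.9 CPM in the in vivo, gonad and iPSC GROs, and 38.5, 34.2, 43.7 and 74.4 CPM in the in vivo, 6 dpp, gonad and iPSC FGOs. The iPSC oocytes had the highest sum at both stages. Only 2 to 4 of the 32 genes were above 1 CPM in a group, so the sum rests on few genes and does not describe Hox genes at large. Hoxa7 made up much of it, with 22.0, 32.9 and 48.1 CPM in those GROs and 33.0, 28.8, 35.6 and 57.2 CPM in those FGOs. Hoxd9 had 4.25, 10.2 and 17.7 CPM in the GROs, and 0.959, 1.12, 3.18 and 9.92 CPM in the FGOs. Cdkn2b, a cell cycle inhibitor, had 6.40, 7.89 and 9.03 CPM in the GROs and 1.04, 0.408, 1.10 and 2.26 CPM in the FGOs, so it was lower in FGOs of each source.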
